A study of Rattus norvegicus with 115 samples.

Results

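The genes described here encode the subunits of the mitochondrial respiratory chain and of ATP synthase. They were taken from the count table by symbol: every row named Nduf followed by a, b, c, s or v and a number (complex I), Sdha to Sdhd (complex II), every name beginning with Uqcr (complex III), every name beginning with Cox4 to Cox8 (complex IV), and every name beginning with Atp5 (ATP synthase). This gave 82 of the 17455 symbols in the table: 36 genes of complex I, 4 of complex II, 8 of complex III, 17 of complex IV and 17 of ATP synthase. The rule uses names alone and no measured value.

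Bulk RNA sequencing was done on cell fractions sorted from mammary tumours of virgin Sprague Dawley rats. The tumours had been induced chemically with N-nitroso-N-methylurea (NMU), a DNA-alkylating carcinogen given into the peritoneum at 50 mg/kg, from 1 to 3 times, at ages of 35 to 53 days. Once tumours could be felt, the rats received vehicle, an anti-PD-L1 antibody, LY2157299 (an inhibitor of the TGF-beta receptor kinase TGFBR1) or the combination of antibody and inhibitor. Anti-PD-L1 blocks an inhibitory ligand of T cells. All 4 groups, vehicle included, bore NMU tumours; a second cohort was left untreated.

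Each column of the table names a rat and a tumour but in most cases not the sorted fraction. Columns were therefore classed by content, in CPM, counts scaled to a fixed total per column. A leukocyte column held at least 300 CPM of Ptprc, which encodes the pan-leukocyte antigen CD45. An epithelial column held under 150 CPM of Ptprc and at least 300 CPM of Epcam, an epithelial adhesion molecule. The lowest Ptprc level of the 44 leukocyte columns was 486 CPM, the highest Ptprc level of the 61 epithelial columns was 124 CPM, and their lowest Epcam level was 381 CPM. A further 2 columns met neither rule, with 165 and 7.01 CPM of Ptprc and 18.98 and 11.9 CPM of Epcam, and were left out. In 53 of 54 tumours the number of leukocyte columns equalled the number of samples labelled CD45. Of the 13 columns that a label fixes to 1 sample, 9 were labelled CD45, and all 9 fell in the leukocyte class. The other 4 fell in the epithelial class. Of these, C9T2, from the untreated cohort, was labelled Ep, while P10T1, P23T1 and P38T2 were labelled DN, a further sorted fraction. The class of a DN column was thus set by content alone.

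The comparisons below rest on Batch 3 of the deposited sample table, where counts were summed over the columns of a rat and the rat was the replicate. The leukocyte class held 17 rats: 6 given vehicle, 3 the inhibitor, 4 anti-PD-L1 and 4 the combination. The epithelial class held 15 rats: 5 given vehicle, 2 the inhibitor, 5 anti-PD-L1 and 3 the combination. Column totals ran from 6674181 to 29727437 counts in the leukocyte class and from 8050029 to 25848279 in the epithelial class. Because these are bulk samples, fewer cells of a type and less RNA per cell cannot be told apart. CPM is not corrected for gene length, so the levels of different genes are not compared.

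Respiratory chain complexes sit in the inner mitochondrial membrane. Complex I (NADH dehydrogenase) and complex II (succinate dehydrogenase, also an enzyme of the citric acid cycle) pass electrons to ubiquinone, complex III passes them to cytochrome c, and complex IV (cytochrome c oxidase) to oxygen. Complexes I, III and IV pump protons as they do so, and ATP synthase uses the returning protons to make ATP. Apart from complex II, each complex joins subunits from the nuclear genome with a few from mitochondrial DNA; the mitochondrially encoded genes were not analysed here. Macrophages and T cells are known to shift between this chain and glycolysis with their state of activation.

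Many nuclear genes of the chain are known targets of nuclear respiratory factor 1 (NRF-1) and of the ETS-family factor GABP, so the promoter letters of the subunits were read for the core sequences of both. RefSeq promoter entries on GRCr8 were found for 71 of the 82 genes. The NRF-1 core was taken as GCGCA followed directly by its reverse complement TGCGC, a palindrome that reads the same on both strands. It occurred in the 250 bases before the start in 4 of the 71 genes (5.63%), and in 255 of all 33469 promoters (0.762%). The ETS core CCGGAAG, on either strand, occurred in 20 of the 71 (28.2%) and in 2434 of all promoters (7.27%). These letter matches are a description and say nothing of binding in these tumours. The 100-base stretches below are those of the 4 genes with the NRF-1 core, and of Ndufa1 and Sdhb, on which results below turn; capitals mark the cores, and CTTCCGG is the ETS core read on the other strand.
Atp5mc2: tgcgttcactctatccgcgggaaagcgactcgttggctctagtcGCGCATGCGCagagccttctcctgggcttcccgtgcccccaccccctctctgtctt
Atp5me: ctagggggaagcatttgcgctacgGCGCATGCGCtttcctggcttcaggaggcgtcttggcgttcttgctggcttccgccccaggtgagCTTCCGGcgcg
Atp5po: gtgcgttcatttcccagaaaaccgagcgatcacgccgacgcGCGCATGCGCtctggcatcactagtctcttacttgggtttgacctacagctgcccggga
Ndufa11: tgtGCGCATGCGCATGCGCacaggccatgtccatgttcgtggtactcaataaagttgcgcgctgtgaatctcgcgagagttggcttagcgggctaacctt
Ndufa1: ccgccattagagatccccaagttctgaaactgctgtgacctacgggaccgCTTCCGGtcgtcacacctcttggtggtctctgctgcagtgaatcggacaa
Sdhb: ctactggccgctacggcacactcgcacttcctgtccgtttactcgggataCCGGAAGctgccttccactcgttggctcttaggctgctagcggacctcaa
The stretches lie, in the same order, at chr7:135678219-135678318 (minus strand), chr14:1464760-1464859 (plus), chr11:44657484-44657583 (minus), chr9:1637514-1637613 (plus), chrX:121293677-121293776 (minus) and chr5:158547776-158547875 (plus) of GRCr8. The first 4 end at the base before the start, that of Ndufa1 runs from 221 to 122 bases before it, and that of Sdhb from 158 to 59 bases before it. Ndufa11 holds overlapping copies of the NRF-1 core, and Atp5me holds both cores.

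Within a rat, most subunit genes lay lower in epithelial than in leukocyte columns. Of the 79 subunit genes measured in both classes of 13 rats, 67 had a mean difference below 0, as did 6454 of all 13475 genes. Of the 79, 18 were lower in the epithelial columns of every rat, against 14.4% of all genes. None was higher in every rat, against 17.9% of all genes. The mean over the subunit genes was lower in epithelial columns by −0.40 ± 0.40 (log2 of CPM, SD, n = 13 rats). Rats P23 and P29 alone had values above 0. Over all genes the mean was 0.36 ± 0.17 (SD), above 0 in all 13 rats. In P23 the leukocyte column came from tumour T2 and the epithelial column from T1, and in P5 tumour T3 gave a leukocyte column alone. The other rats gave both classes from the same tumour. The classes were set from these same columns, so no test was made of the difference. In P5, P6, P8, P17, P24, P26 and P29, summed fibroblast markers exceeded luminal ones in the epithelial columns, as described below. The difference ran from −1.07 (P5) to 0.18 (P29) in these rats, and from −0.77 (P33) to 0.16 (P23) in the others. The part of stromal RNA in the difference was not tested.

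That description depends on the scaling of the libraries, which shifts all genes together. With trimmed-mean (TMM) scaling the median of 13446 genes common to both scalings lay at 0.07, and the median of the subunit genes at −0.44. With CPM by column total the median of all genes moved to 0.29 and that of the subunit genes to −0.21. The mean over the subunit genes was then −0.17 ± 0.46 (SD, n = 13), with 5 rats above 0. Of the 79, 57 lay below 0, 6 were lower and 1 higher in every rat. Matching counts over all genes are not given for this scaling. In Batch 1, with 7 rats, the mean was −0.21 ± 0.58 (SD) and 4 rats lay above 0. In Batch 2, with 12 rats, it was −0.02 ± 0.38 (SD), with 6 rats above 0. Rats thus lay mostly below 0 in Batch 3 and on both sides of 0 in the other batches.

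By complex, the mean epithelial minus leukocyte difference (log2 of CPM, SD over 13 rats) was −0.64 ± 0.49 for ATP synthase, where 16 of 17 genes lay below 0. Complex IV followed at −0.47 ± 0.42 and complex III at −0.46 ± 0.46, where all 8 genes lay below 0. Complex I stood at −0.28 ± 0.41. Complex II lay nearest 0, at −0.06 ± 0.33, and its sign turned with the scaling, to 0.17 by column total. The SDs of the complexes overlap, and the same libraries carry all of them.

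Among complex I genes the smallest value was that of Ndufa1, a small membrane-arm subunit encoded on the X chromosome. Its epithelial levels ran from 8.17 to 24.7 CPM with a median of 15.8, and its leukocyte levels from 29.5 to 96.0 CPM with a median of 57.3. The groups did not overlap, and the within-rat difference was −1.78 ± 0.55 (log2, SD, n = 13). At the other end among the widely expressed genes of this complex stood Ndufs1, the large iron-sulphur subunit of the electron-entry arm. It lay at 70.9 CPM in epithelial columns (median, range 27.9 to 101.02) and 47.5 CPM in leukocyte columns (median, range 16.8 to 85.6), and was higher in epithelial columns in 11 of 13 rats (0.47 ± 0.42).

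A division of complex I by role was drawn up after the values were seen. The 7 nuclear core subunits, which hold the flavin and iron-sulphur clusters or line the quinone site, had a median difference of −0.13 between the classes. For the other 29 subunits, which surround and stabilise the core, it was −0.41. The same was done for ATP synthase: the 5 subunits of the F1 part (catalytic head and central stalk) had a median of −0.32, and the other 12 genes (peripheral stalk, membrane part and the inhibitor protein) one of −0.59, with none above 0.

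ATP synthase ranged from Atp5f1e, the epsilon subunit of the central stalk, to Atp5f1a, the alpha subunit of the F1 head. Atp5f1e lay between 61.9 and 168 CPM in epithelial columns (median 103.5) and between 167 and 530.3 CPM in leukocyte columns (median 388), a difference of −1.73 ± 0.80 (log2, SD, n = 13). Its level was lower in the epithelial columns of every rat. Atp5f1a lay between 434 and 793 CPM (median 639) against 405 to 727 CPM (median 602), a difference of 0.06 ± 0.32. Its ranges overlapped almost fully.

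In complex IV, Cox7b, a small structural subunit, stood at a median of 49.1 CPM in epithelial columns (38.7 to 122) and 147 CPM in leukocyte columns (87.8 to 217), and was lower in every rat (−1.33 ± 0.65). Cox4i1, a regulatory subunit that binds ATP, was also lower in every rat (−1.08 ± 0.55). In complex III, Uqcrq, which contacts cytochrome b, was lower in every rat (−1.01 ± 0.68), while Uqcrc2, a large core protein facing the matrix, differed by −0.02 ± 0.29. In complex II, Sdhd, one of the membrane anchors, was the lowest at −0.52 ± 0.43, and Sdhc, the other anchor, the highest at 0.17 ± 0.38.

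**Figure D1:**
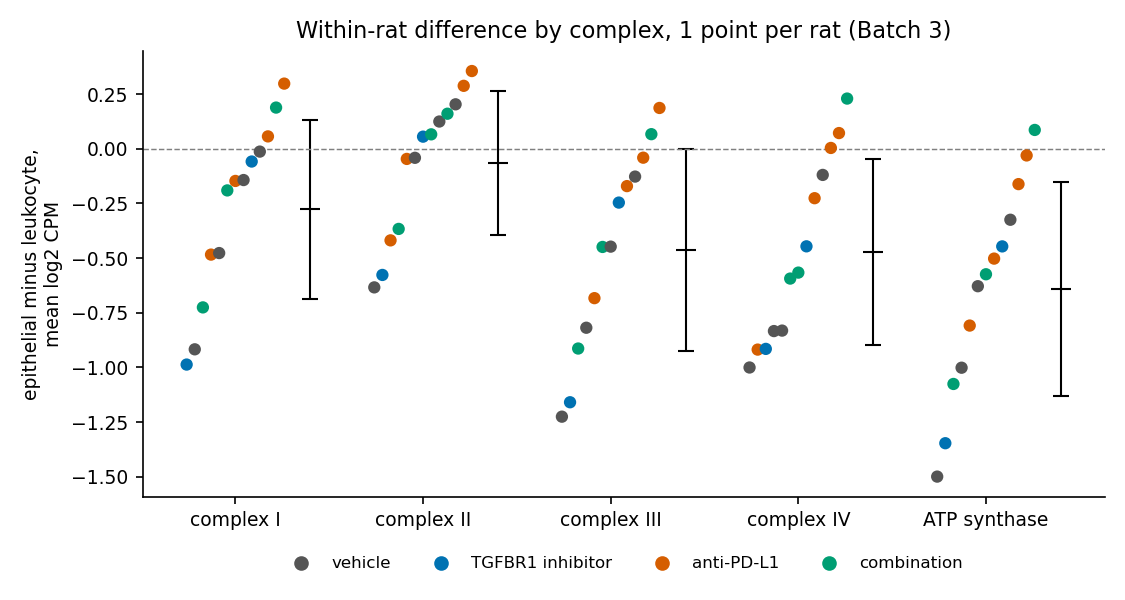
Epithelial minus leukocyte difference within each of 13 Batch 3 rats (points, coloured by treatment; vertical axis, log2 of CPM averaged over the genes of a complex), by complex on the horizontal axis, with the mean and SD over rats as bars. Complex II is centred nearest 0 (−0.06 ± 0.33) and ATP synthase lowest (−0.64 ± 0.49), with wide overlap of the rats.

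In leukocyte columns, subunit genes tended to lie lower in inhibitor-treated than in vehicle-treated rats, but none passed the test. The median over 78 genes tested was a log2 fold change of −0.35, beside 0.03 for all 11680 genes, and 73 of the 78 lay below 0, where 47.4% of all genes did. With edgeR's quasi-likelihood test and Benjamini-Hochberg adjustment over all genes, 0 of 78 had an adjusted p under 0.05, as did 0% of all genes; the smallest adjusted p was 0.199. At an unadjusted p under 0.05 there were 9, all lower, against 14.6% of all genes. The complex medians were close together: −0.34 for complex I, −0.38 for complex II, −0.27 for complex III, −0.34 for complex IV and −0.39 for ATP synthase.

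The complex I gene lowest with the inhibitor was Ndufb3, an accessory subunit of the membrane arm. In the vehicle rats it lay between 68.9 and 127 CPM with a median of 84.6, and in the inhibitor rats at 54.1 (P17), 48.4 (P19) and 41.3 CPM (P22). Every inhibitor rat lay below every vehicle rat. The log2 fold change was −0.88 ± 0.23 (SE), with an unadjusted p of 0.00117 and an adjusted p of 0.199 in edgeR's test. DESeq2, run as an alternative, gave −0.91 ± 0.24 (SE) and an adjusted p of 0.0198.

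For Sdhb, the iron-sulphur subunit of succinate dehydrogenase, the vehicle rats ranged from 159 to 248 CPM with a median of 189, and the inhibitor rats stood at 129.6, 134 and 123 CPM. The groups did not overlap (log2 fold change −0.60 ± 0.19, adjusted p 0.199 in edgeR's test). DESeq2 gave −0.63 ± 0.19 (SE) and an adjusted p of 0.0396. These were the only 2 subunit genes DESeq2 called in this comparison, lower in both cases, where it called 2.71% of all genes. No other alternative called a subunit gene in any comparison.

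Sdha, the flavoprotein of the same enzyme, lay the other way. Its levels were 133 to 163 CPM in vehicle rats (median 155) and 169.6, 201 and 166 CPM in inhibitor rats, again without overlap. The fold change was 0.25 ± 0.19 (SE), with an adjusted p of 0.558 in edgeR's test. In complex III, Uqcr11, the smallest subunit, lay between 229.9 and 389.7 CPM in vehicle rats (median 316) and at 211, 169.7 and 154 CPM in inhibitor rats, with a fold change of −0.79 ± 0.29 (adjusted p 0.237 in edgeR's test). Uqcrc1, a core protein of the same complex, had 0.04 ± 0.19. In all, 6 genes (Ndufb3, Sdhb, Ndufv2, Uqcr11, Ndufs4 and Sdhc) lay below every vehicle rat in every inhibitor rat, against 4.73% of all genes, and Sdha alone lay above, against 5.24%.

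Within ATP synthase the inhibitor values ran from −0.59 ± 0.37 for Atp5f1e to 0.07 ± 0.21 for Atp5f1a (log2 fold change, SE), and complex I reached up to 0.00 ± 0.16 for Ndufv1, which binds NADH. In complex IV the extremes were the weakly detected isoforms Cox4i2 (−0.90 ± 0.88) and Cox6b2 (0.10 ± 0.64). The inhibitor median rested in part on single rats. It was −0.67 without P17, whose mean over the subunit genes was 7.13 on the log2 CPM scale, and −0.22 without P22. The other 2 inhibitor rats had means of 6.45 (P19) and 6.47 (P22), beside 7.05 ± 0.21 (SD, n = 6) in vehicle rats. The count at an unadjusted p under 0.05 was 50 without P17 and 4 without either P19 or P22. It was 5 without vehicle rat P5, and 14 without either vehicle rat P8 or combination rat P35. The share of all genes in each of these fits is not given, so the counts show only their dependence on single rats.

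The macrophage, neutrophil and B cell content of the leukocyte columns differed between the vehicle and inhibitor rats without overlap. The summed level of 8 macrophage markers (among them Cd68, Csf1r and C1qa) ran from 2646 to 15273 CPM in vehicle rats and from 1363 to 2351 CPM in inhibitor rats. It ran from 1141 to 4116 CPM with anti-PD-L1 and from 793 to 8722 CPM with the combination. The summed T cell markers stood at 2473 to 4643 CPM with vehicle, 4499 to 5798 CPM with the inhibitor, 3348 to 4502 CPM with anti-PD-L1 and 3345 to 6710 CPM with the combination. The summed neutrophil markers stood at 60.1 to 372 CPM with vehicle and 21.8 to 39.4 CPM with the inhibitor, and the B cell markers at 2.79 to 23.8 CPM and 34.3 to 86.1 CPM. No marker of these lists was at 0 in every rat. The part of cell content in the subunit values was not tested.

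**Figure D2:**
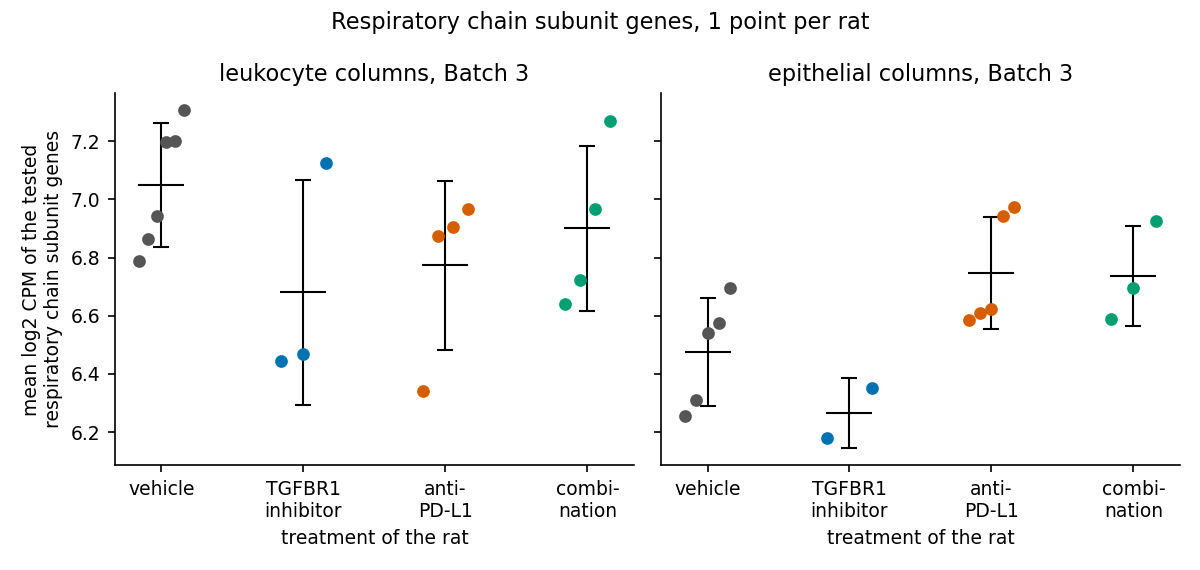
Mean log2 CPM over the subunit genes in each Batch 3 rat (points), by treatment and class, with the mean and SD of each group as bars. Leukocyte rats with anti-PD-L1 sit at 6.34 to 6.97 beside a vehicle mean of 7.05, and epithelial rats with anti-PD-L1 at 6.59 to 6.97 beside a vehicle mean of 6.48.

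With anti-PD-L1 alone, leukocyte columns had a median log2 fold change of −0.28 over the 78 genes, beside 0.03 for all genes, and 74 lay below 0 (47.1% of all genes). None was called (0% of all genes were), with a smallest adjusted p of 0.629 in edgeR's test, and 2 had an unadjusted p under 0.05 against 7.51% of all genes. These were Ndufb3, at 59.8, 64.7, 77.7 and 45.3 CPM in the 4 rats (−0.52 ± 0.20, SE), and Sdhb, at 144, 189, 144 and 129 CPM (−0.37 ± 0.17, SE). Both overlapped the vehicle range. No subunit gene had all its anti-PD-L1 rats above or below all vehicle rats, against 1.01% and 1.18% of all genes.

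Complex extremes with anti-PD-L1 were small in leukocytes. ATP synthase ran from Atp5mc2, a gene for the c-ring subunit whose promoter stretch is printed above (−0.37 ± 0.24), to Atp5f1a (−0.04 ± 0.19). Complex III ran from Uqcr11 (−0.43 ± 0.26) to Uqcrc1 (0.02 ± 0.17), and complex II ended at Sdha (−0.02 ± 0.17). In complex I the highest was Ndufa10l1 (0.08 ± 0.30), which shares sequence with Ndufa10 and is uncertain. Complex IV ran from the muscle-type isoform Cox6a2 (−1.28 ± 1.24), with at most 39 counts in a rat, to Cox7b (−0.01 ± 0.23). The median over the 78 genes was −0.15 without rat P29, the lowest of the group. The leukocyte columns of P29 also held 1021 CPM of B cell markers, against 18.6 to 31.3 CPM in the other 3 rats, and 146 CPM of milk and alveolar markers, against 8.90 to 11.3 CPM. Combination rat P36 held 572 CPM of B cell markers, with a mean over the subunit genes of 6.97 (log2 CPM). The part of the B cell and milk markers in the value of P29 was not tested.

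The combination gave leukocyte columns a median of −0.11 (all genes 0.06), with 67 of 78 below 0 where 44.4% of all genes were, and 0 of 78 called (0% of all genes; smallest adjusted p 0.325 in edgeR's test). Sdhb was the only gene with an unadjusted p under 0.05, against 11.4% of all genes, at 124, 169, 125 and 143 CPM (−0.48 ± 0.17, SE, unadjusted p 0.0107). Of its 4 rats, 3 lay below the lowest vehicle rat. No gene separated the groups, where 1.25% of all genes lay above and 1.38% below.

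Single rats set the size of that small median. It was −0.01 without P35, −0.04 without P23 and −0.25 without P33, and 45 genes rather than 67 lay below 0 without P35. P33 had the highest mean of the 4 (7.27, log2 CPM) and also the highest macrophage sum of its group, 8722 CPM. The highest mean and the highest macrophage sum also fell together in vehicle rat P5 and anti-PD-L1 rat P24. Among inhibitor rats, P17 had the highest mean (7.13) and the lowest sum, 1363 CPM. The part of macrophage content in these means was not tested. Extremes ran from Ndufa8 (−0.36 ± 0.18) to Ndufa5 (0.42 ± 0.38) in complex I and from Sdhb to Sdha (0.04 ± 0.17) in complex II. They ran from Uqcr11 (−0.27 ± 0.25) to Uqcrfs1, the Rieske iron-sulphur protein (0.10 ± 0.22), in complex III, and from Cox6a2 (−0.74 ± 1.22) to Cox7b (0.05 ± 0.23) in complex IV. In ATP synthase they ran from Atp5mc1, another c-ring gene (−0.30 ± 0.29), to Atp5f1d, the delta subunit of the central stalk (0.30 ± 0.32).

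Batch 2 gave the same sign for all 3 treatments in leukocytes, with medians of −0.66 for the inhibitor, −0.67 for anti-PD-L1 and −0.96 for the combination, the last from 2 rats. It is not a separate set of animals, since 7 of its 14 rats also gave Batch 3 columns, from other tumours. Its group means over the subunit genes were 7.004 ± 0.54 (vehicle), 6.53 ± 0.43 (inhibitor), 6.46 ± 0.35 (anti-PD-L1) and 6.30 ± 0.06 (combination; log2 CPM, SD). No subunit gene was called there. With all batches in 1 edgeR fit and batch as a covariate, the medians were −0.47, −0.42 and −0.42. The smallest adjusted p of that fit was that of Sdhb with anti-PD-L1, 0.0684. The fit had no rat term, so the 7 rats with columns in both batches entered as 2 units each. Its p-values therefore do not rest on independent rats.

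**Figure D3:**
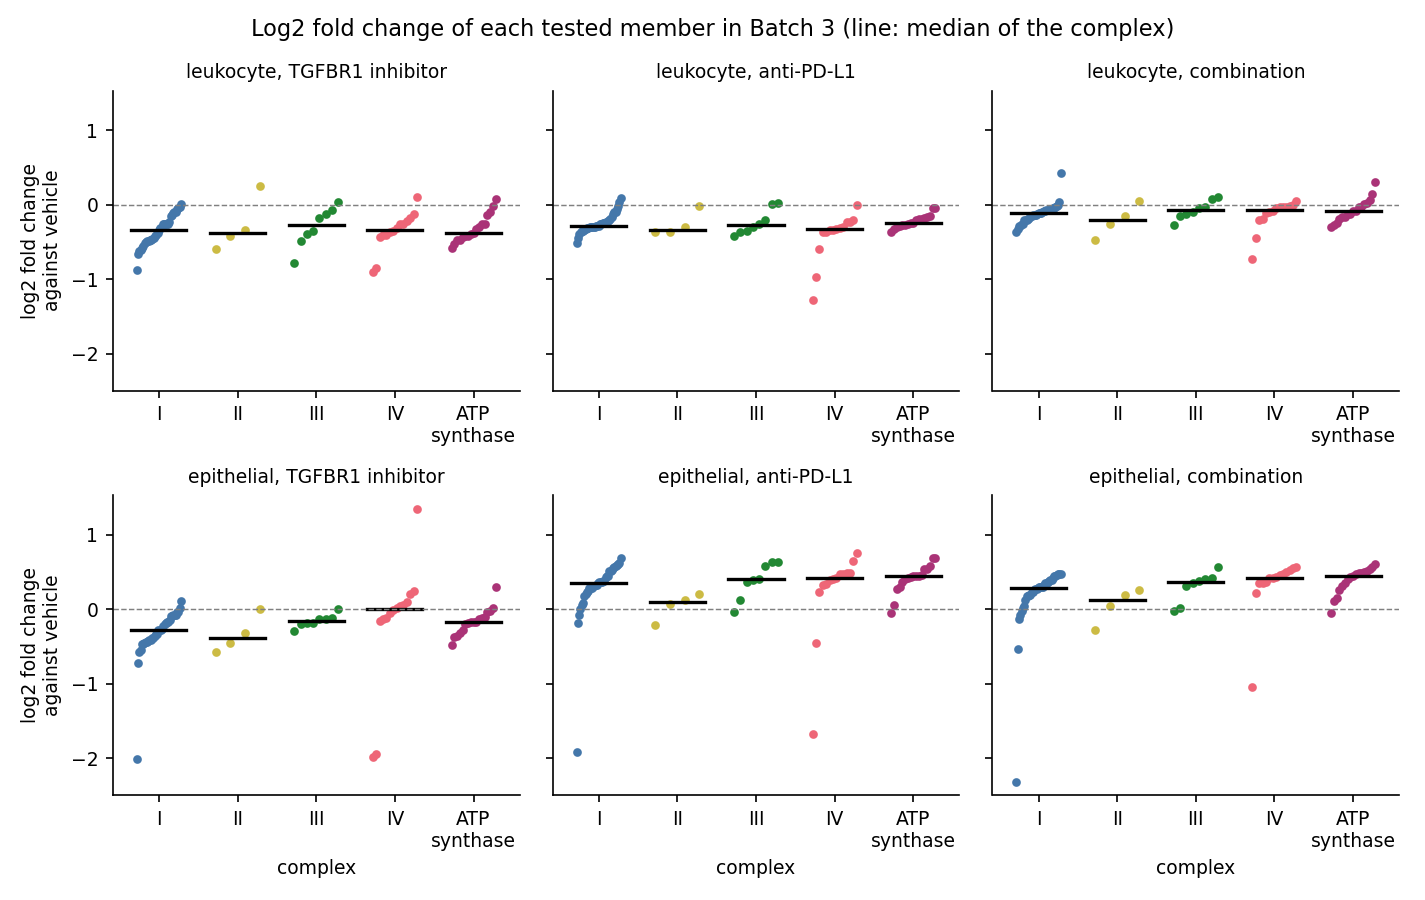
Log2 fold change against vehicle of every tested subunit gene (points), by complex, for each treatment and class, with the median of each complex. Points of the leukocyte panels lie mostly below 0, and points of the epithelial anti-PD-L1 and combination panels mostly above it.

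In epithelial columns, subunit genes lay higher with anti-PD-L1 than with vehicle, again without passing the test. The median over 79 genes tested was a log2 fold change of 0.38, beside 0.04 for all 12961 genes, and 70 lay above and 9 below 0, where 54.4% and 45.6% of all genes did. None was called in edgeR's test (0% of all genes; smallest adjusted p 1.00). At an unadjusted p under 0.05 there were 27, all higher, against 3.52% of all genes. The mean over the subunit genes was 6.48 ± 0.19 (SD, n = 5) with vehicle and 6.75 ± 0.19 (SD, n = 5) with anti-PD-L1 on the log2 CPM scale. The ranges overlapped: 6.26 to 6.69 with vehicle and 6.59 to 6.97 with anti-PD-L1.

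The count of 27 depended on single rats. It ran from 7 without P26 to 33 without P39, with 17 without P27, 14 without P38, 9 without P5, 11 without P6 and 13 without P8. The median ran from 0.27 to 0.48 in these fits, for which the share of all genes is not given. Sorting differed too. All vehicle columns came from tumours whose only label besides CD45 was DN, and none from tumours labelled Ep. Of the 8 anti-PD-L1 columns, 6 came from tumours with a separate fraction labelled Ep as well as DN. Without such tumours 2 anti-PD-L1 rats remained, and the median was 0.37, with 9 genes at an unadjusted p under 0.05 (share of all genes not given). In Batch 2 the median was 0.0076, with 40 of 77 genes above 0; of its 17 rats 8 also gave Batch 3 columns.

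ATP synthase and complex IV had the largest medians with anti-PD-L1, 0.44 and 0.41, followed by complex III at 0.40, complex I at 0.35 and complex II at 0.10. Atp5mf, a subunit of the membrane part of ATP synthase, lay at 101.7, 149, 81.8, 105.9 and 111 CPM in the vehicle rats. With anti-PD-L1 it lay at 143, 207, 163, 123 and 249 CPM, so that all 5 rats lay above every vehicle rat but P39, and 3 of them above P39 as well. The fold change was 0.69 ± 0.22 (SE), with an unadjusted p of 0.00740 and an adjusted p of 1.00 in edgeR's test. Atp5f1a, by contrast, stood at −0.05 ± 0.20.

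In complex III, Uqcr10, a small membrane subunit, lay at 108.9, 194, 99.6, 147 and 144 CPM with vehicle and at 168, 264, 226, 190.1 and 227 CPM with anti-PD-L1 (0.63 ± 0.20, SE). The groups overlapped through vehicle rat P39. Uqcrc1 stood at −0.04 ± 0.17. In complex IV the highest was Cox7b (0.76 ± 0.26) and the lowest the isoform Cox4i2 (−1.68 ± 1.62). Sdhb was the highest of complex II at 0.21 ± 0.18 and Sdha the lowest at −0.21 ± 0.22.

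A pair of complex I genes separated the groups fully, against 0.231% of all genes, and none did so in the lower direction, against 0.0694%. They were picked out after their values were seen. Ndufa1 lay at 12.8, 13.1, 12.98, 15.9 and 16.2 CPM with vehicle and at 22.8, 27.8, 21.2, 18.4 and 19.02 CPM with anti-PD-L1 (0.62 ± 0.23, SE). Ndufb11, another X-linked membrane-arm subunit, lay at 91.9, 100.7, 72.4, 81.9 and 86.8 CPM with vehicle and at 138, 147, 114, 106.6 and 113 CPM with anti-PD-L1 (0.51 ± 0.18, SE). Both had an adjusted p of 1.00 in edgeR's test. The highest fold change of complex I was that of Ndufa4 (0.69 ± 0.27), a subunit since assigned to complex IV, and the lowest that of Ndufa4l2 (−1.92 ± 1.22).

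**Figure D4:**
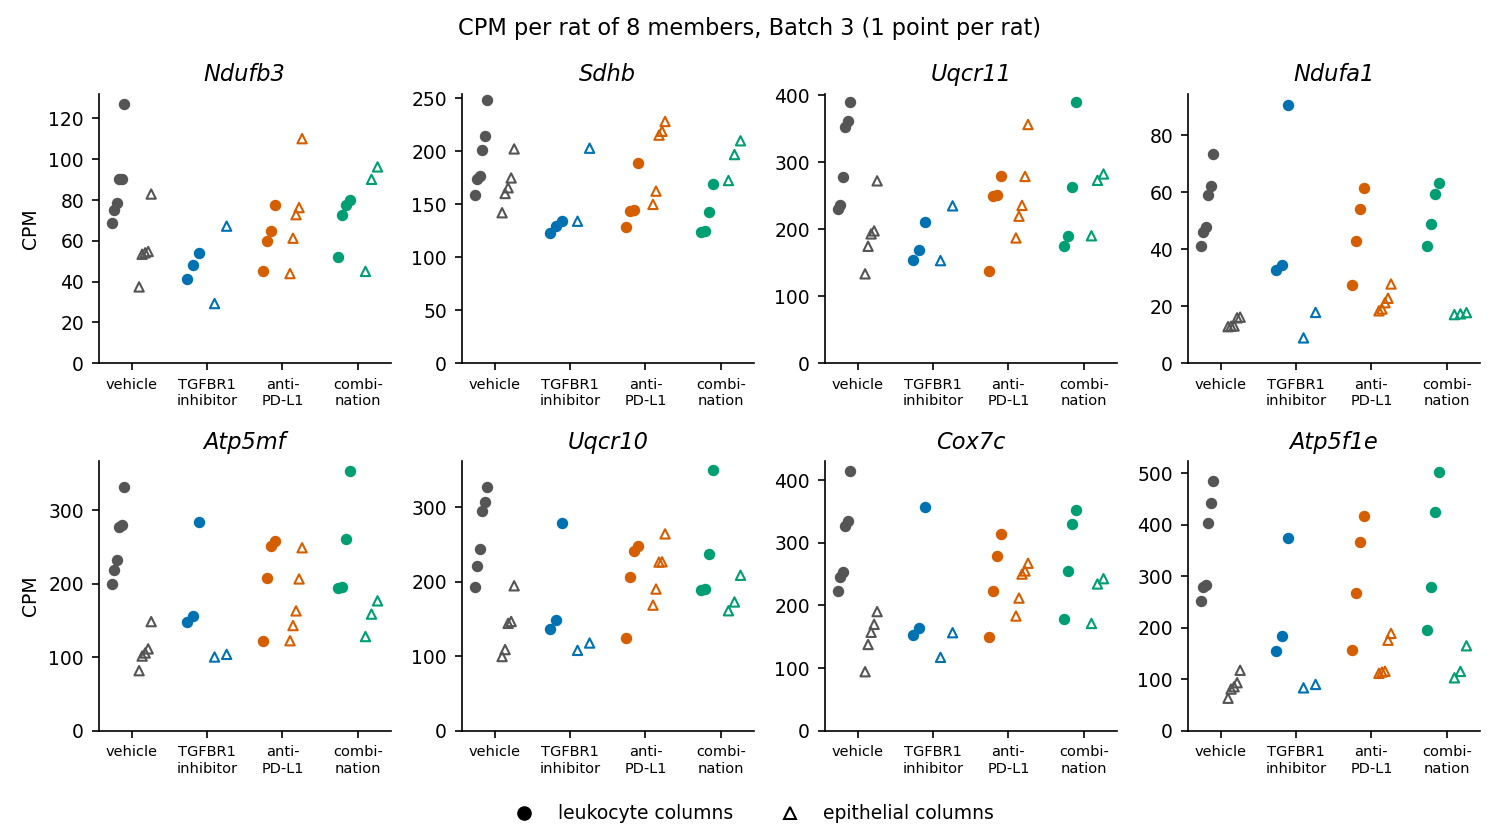
CPM of 8 named subunit genes in each Batch 3 rat, with filled circles for leukocyte and open triangles for epithelial columns, coloured by treatment. The classes were scaled separately, so points are to be compared within a class. Leukocyte Ndufb3 lies at 41.3 to 54.1 CPM in inhibitor rats, below the vehicle range of 68.9 to 127 CPM, and epithelial Ndufa1 from anti-PD-L1 rats (18.4 to 27.8 CPM) sits above that from vehicle rats (12.8 to 16.2 CPM).

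The combination gave epithelial columns a median of 0.35 (all genes 0.02), with 70 of 79 above and 9 below 0, where 51.7% and 48.3% of all genes were. None was called in edgeR's test (0% of all genes; smallest adjusted p 0.999), and 7 had an unadjusted p under 0.05, all higher, against 2.65% of all genes. That count was 0 without P23 and 15 without P39 (shares of all genes in these fits not given), and the median was 0.21 without P23. The epithelial columns of P23 held the highest sums of the 15 rats for leukocyte (360.1 CPM), macrophage (1537 CPM) and skeletal muscle markers (134 CPM), whose part in the result was not tested. Every combination rat lay above every vehicle rat for 9 genes, against 1.71% of all genes: Atp5if1, Ndufa5, Cox7a2l, Atp5mc3, Atp5f1d, Ndufb6, Cox5b, Cox7a2 and Ndufa1. None lay below, against 1.06%. In Batch 2 the median was 0.21, with 72 of 77 genes above 0.

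Atp5if1, the inhibitor protein that limits ATP hydrolysis by the synthase, had the highest value of its complex with the combination (0.61 ± 0.26, SE), and Atp5f1a the lowest (−0.05 ± 0.23). Cox7c, a small complex IV subunit, is given here though it was not an extreme of its complex. It lay at 169.8, 190.2, 94.2, 138 and 157 CPM with vehicle and 243, 171 and 234 CPM with the combination (0.53 ± 0.24, SE). With anti-PD-L1 it lay at 255, 267, 212, 183 and 250.1 CPM (0.64 ± 0.21, SE). The 2 comparisons share their vehicle rats. Other extremes with the combination were Ndufa5 (0.48 ± 0.22) and Ndufa4l2 (−2.32 ± 1.51) in complex I, Sdhd (0.25 ± 0.21) and Sdha (−0.28 ± 0.26) in complex II, Uqcrh (0.56 ± 0.26) and Uqcrc1 (−0.03 ± 0.20) in complex III, and Cox6a2 (0.57 ± 1.53) and Cox4i2 (−1.04 ± 1.88) in complex IV.

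By the roles given above, with anti-PD-L1 28 of 29 accessory and 4 of 7 core genes of complex I lay above 0 in epithelial columns, with medians of 0.36 and 0.28. All 12 ATP synthase genes outside the F1 part lay above 0, with a median of 0.45 beside 0.27 for F1. With the combination the medians were 0.29 and 0.18 in complex I, and 0.46 and 0.14 in ATP synthase. In inhibitor-treated leukocytes, the accessory complex I genes had a median of −0.40 and the core genes one of −0.26, and ATP synthase genes outside F1 −0.39 beside −0.26. Since the roles were drawn up after the values were seen, these medians are a description only.

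The inhibitor alone was tested in 2 epithelial rats. The median was −0.18 (all genes −0.01), 12 of 79 genes lay above 0 where 48.9% of all genes did, and none was called in edgeR's test (0% of all genes; smallest adjusted p 1.00). An unadjusted p under 0.05 was found for 2 genes, against 3.21% of all genes. The median was −0.40 without P22 and −0.065 without P17, and −0.12 and −0.29 without vehicle rats P39 and P5. Sdhd lay at 72.6 and 105.9 CPM, below the vehicle values of 122, 158, 113, 149 and 127 CPM (−0.58 ± 0.25, SE, unadjusted p 0.0364). It was 1 of 6 genes below every vehicle rat, with Ndufs5, Ndufb6, Ndufb8, Ndufa2 and Ndufa9, against 3.64% of all genes; none lay above, against 3%.

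Complex medians with the inhibitor in epithelial columns were −0.28 for complex I, −0.39 for complex II, −0.16 for complex III, 0.00 for complex IV and −0.17 for ATP synthase. The widely expressed extremes were Atp5f1c, the gamma shaft of F1 (−0.48 ± 0.36), Atp5if1 (0.29 ± 0.29), Ndufa5 (0.11 ± 0.25), Sdhb (−0.00 ± 0.24), Uqcr10 (−0.30 ± 0.27) and Uqcr11 (0.00 ± 0.32). Those of low level were Ndufa4l2 (−2.01 ± 1.76), Cox6b2 (−1.99 ± 1.69) and Cox6a2 (1.35 ± 1.68).

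The epithelial columns also held stromal RNA in amounts that differed among rats. Summed fibroblast markers (Col1a1, Col1a2, Col3a1, Pdgfra, Dcn and Lum) ran from 198 to 32196 CPM with vehicle and from 192 to 49862 CPM with anti-PD-L1. With the inhibitor they stood at 192 and 49731 CPM, and with the combination at 463 to 11318 CPM. All 6 were counted in every rat. The lowest and highest fibroblast sums occurred with anti-PD-L1, in P38 and P24. Summed luminal markers (Epcam, Krt8, Krt18, Krt19, Cdh1 and Cldn3) ran from 4703 to 20198 CPM with vehicle and from 3866 to 13097 CPM with anti-PD-L1. They stood at 9111 and 12803 CPM with the inhibitor and at 6521 to 12397 CPM with the combination. The fibroblast sum exceeded the luminal sum in P5, P6, P8, P17, P24, P26 and P29. Vehicle rats P5, P6 and P8 also held 129.5 to 192 CPM of leukocyte markers. Their macrophage markers summed to 307 to 719 CPM and their endothelium markers to 194 to 257 CPM. With anti-PD-L1 the leukocyte sum ran from 5.87 to 43.4 CPM. The macrophage sum ran from 12.5 to 156 CPM there, and the endothelium sum from 6.07 to 107.9 CPM. Vehicle rats P10 and P39 lay within these anti-PD-L1 ranges. The sums are of different genes and do not give shares of cells. Their part in the subunit values was not tested.

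Whether a treatment effect differed between epithelial and leukocyte columns was tested directly, with an interaction term in edgeR's fit over both classes. For anti-PD-L1 the median difference of the 79 genes was 0.62 (log2, epithelial minus leukocyte effect), beside −0.03 for all 13446 genes. It lay above 0 for 72 and below 0 for 7 of them, against 47.7% and 52.3% of all genes. None was called (0% of all genes; smallest adjusted p 0.842), and 28 had an unadjusted p under 0.05, all higher, against 5.79% of all genes. Adding the rat as a block, since 13 rats gave both classes, left 0 called and 3 at an unadjusted p under 0.05, with a median of 0.52. Leaving out 1 rat moved the count of 28 to between 3 (without P5) and 47 (without P24), with medians of 0.48 to 0.77. For the fits with the block or without a rat, the share of all genes is not given.

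Uqcr10 had the highest of these differences with anti-PD-L1 in complex III (0.94 ± 0.33, SE) and Uqcrc1 the lowest (−0.12 ± 0.23). In ATP synthase they were Atp5mf (0.92 ± 0.34) and Atp5f1a (−0.07 ± 0.25), in complex I Ndufa4 (0.89 ± 0.36) and Ndufa4l2 (−0.85 ± 1.66), and in complex II Sdhb (0.52 ± 0.23) and Sdha (−0.24 ± 0.27). In complex IV both ends were isoforms of low level, Cox6b2 (1.16 ± 1.30) and Cox4i2 (−1.13 ± 1.79).

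For the combination the median difference was 0.39 (all genes −0.04), 72 of 79 lay above and 7 below 0 (47.8% and 52.2% of all genes), and none was called (0%; smallest adjusted p 0.827 in edgeR's test). An unadjusted p under 0.05 was found for 2, against 5.87% of all genes, and for 29 without P33 (share of all genes not given). Ndufb3 had the highest value in complex I (0.74 ± 0.39) and Ndufs1 the lowest (−0.31 ± 0.53). Sdhb (0.64 ± 0.25) and Sdha (−0.36 ± 0.29) again stood at opposite ends of complex II. Uqcr11 (0.60 ± 0.37), Uqcrc1 (−0.14 ± 0.25), Atp5mc2 (0.65 ± 0.37), Atp5f1a (0.07 ± 0.27), Cox6a2 (1.25 ± 1.96) and Cox4i2 (−0.68 ± 1.93) were the ends of the others.

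For the inhibitor the median difference was 0.06 (all genes −0.06), its sign turned to −0.08 with the rat as a block, and it ran from −0.15 to 0.46 with 1 rat left out. It lay above 0 for 51 of 79 genes, against 46.3% of all genes. None was called (0%; smallest adjusted p 1.00 in edgeR's test), and 0 had an unadjusted p under 0.05, against 4.57% of all genes. Complex II again spanned from Sdha (−0.63 ± 0.33) to Sdhb (0.54 ± 0.28), and the others from Uqcrc1 (−0.23 ± 0.28) to Uqcr11 (0.73 ± 0.42), Atp5f1a (−0.48 ± 0.31) to Atp5f1e (0.51 ± 0.50), Ndufs1 (−0.52 ± 0.60) to Ndufa4l2 (0.81 ± 1.84), and Cox6b2 (−2.15 ± 1.62) to Cox6a2 (2.12 ± 2.17).

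Some complexes have subunits with a second gene that is used in particular tissues. Cox4i2 and Ndufa4l2 are known from vascular smooth muscle, pericytes and cells low in oxygen, Cox6a2 and Cox8b from striated muscle, and Cox6b2 and Cox8c from testis. In leukocyte columns of Batch 3, Cox8b and Cox8c had 0 counts in every rat, Cox6a2 reached at most 1.26 CPM, Ndufa4l2 1.12 CPM, Cox4i2 3.06 CPM and Cox6b2 5.998 CPM. Their widely used counterparts were present in every rat: Cox4i1 at 144 to 458 CPM, Cox6a1 at 471 to 1191 CPM, Cox6b1 at 181 to 445 CPM, Cox8a at 202 to 729 CPM and Ndufa4 at 100.8 to 251 CPM. Cox7a1 and Cox7b2 were not among the rows used here.

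In epithelial columns 3 of these isoforms varied widely from rat to rat within a treatment. Ndufa4l2 lay at 1.67 (P10), 1.39 (P39), 46.8 (P5), 23.2 (P6) and 39.3 CPM (P8) with vehicle, and at 7.16 (P17) and 3.99 CPM (P22) with the inhibitor. It lay at 24.9 (P24), 1.15 (P26), 0.455 (P27), 1.03 (P29) and 2.41 CPM (P38) with anti-PD-L1, and at 2.18 (P23), 10.5 (P33) and 0.861 CPM (P36) with the combination. The treated groups overlapped the vehicle range through P10 and P39. Within rats it was higher in epithelial than in leukocyte columns in 12 of 13 (3.98 ± 2.19, log2, SD).

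Cox4i2 was high in the same vehicle rats, at 26.6 (P5), 13.3 (P6) and 20.1 CPM (P8), and stood at 0.833 (P10) and 0.0866 CPM (P39) in the others. With anti-PD-L1 it lay at 17.5 CPM in P24 and at 0.0380 to 0.977 CPM in the other 4 rats, and P33 led the combination rats at 14.9 CPM. Cox6b2 lay between 0.787 and 30.2 CPM with vehicle and was highest of all in P24, at 48.5 CPM. The summed level of the pericyte markers Rgs5, Pdgfrb, Cspg4 and Mcam was 788, 589.7 and 767 CPM in P5, P6 and P8 and 779 CPM in P24. It was 59.5 and 16.1 CPM in P10 and P39, and 244 CPM in P33. The order was not the same throughout: P17 had a pericyte sum of 489.9 CPM with Ndufa4l2 at 7.16 CPM, and P26 one of 302 CPM with Ndufa4l2 at 1.15 CPM. Its part in the isoform values was not tested.

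**Figure D5:**
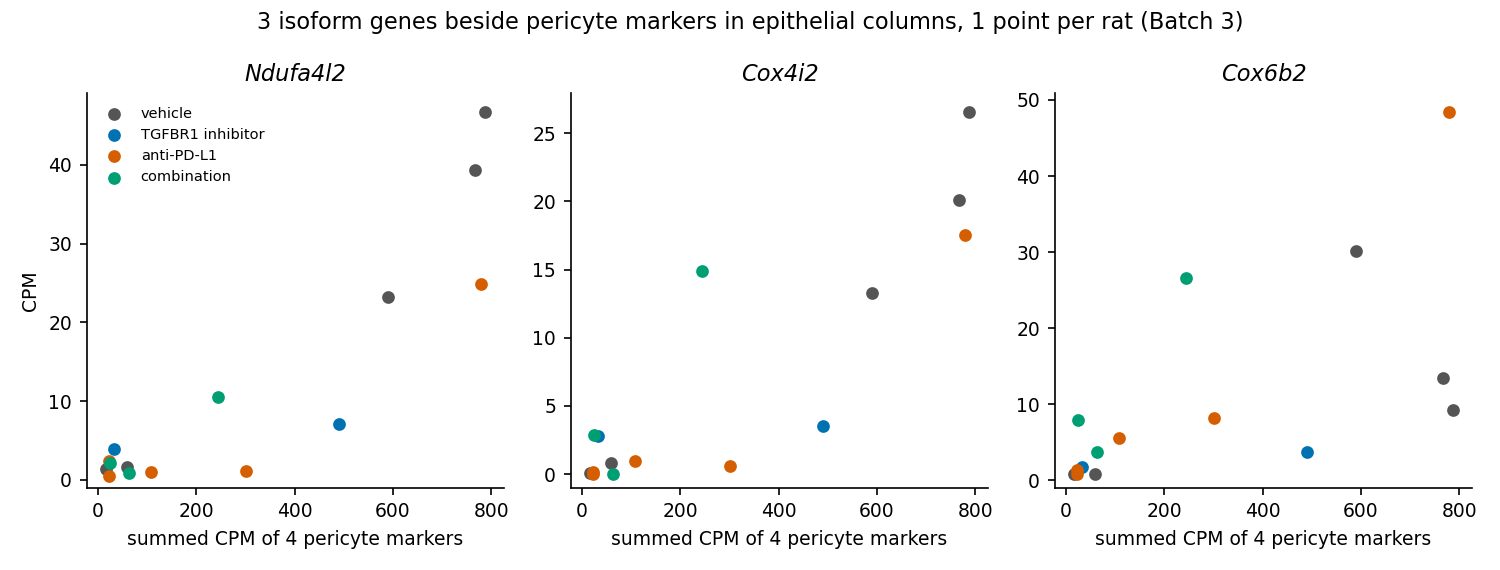
CPM of Ndufa4l2, Cox4i2 and Cox6b2 in the epithelial columns of each of 15 Batch 3 rats (vertical axis) against the summed CPM of 4 pericyte markers in the same columns (horizontal axis), coloured by treatment. Rats P5, P6, P8 and P24, with pericyte sums of 589.7 to 788 CPM, have Ndufa4l2 at 23.2 to 46.8 CPM.

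Other genes of mitochondrial energy metabolism were followed by fixed lists, and none of their genes was called in any of these comparisons (0% of all genes in edgeR's test). In epithelial columns with anti-PD-L1, 34 assembly factors of the respiratory complexes had a median of 0.19, with 29 above 0. In the same comparison 18 citric acid cycle genes had a median of 0.10, 13 regulators of mitochondrial biogenesis −0.08, and 21 glycolysis genes −0.31, with 19 below 0. With the combination those medians were 0.14, −0.03, 0.15 and 0.16. With the inhibitor they were −0.20, −0.14, 0.29 and −0.02.

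In leukocyte columns the assembly factors had medians of −0.17 with the inhibitor, −0.11 with anti-PD-L1 and −0.03 with the combination. Those of the citric acid cycle were 0.10, 0.03 and 0.09, those of the biogenesis regulators 0.31, 0.17 and 0.15, and those of glycolysis −0.05, −0.25 and 0.01. Between the classes, glycolysis genes lay lower in epithelial columns by a median of −0.41, beside 0.06 for all genes. Of the 21, 16 lay below 0, as did 6454 of all 13475 genes. Assembly factors (−0.04), biogenesis regulators (−0.12) and the citric acid cycle (−0.02) lay near 0.

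Comparisons across batches have a limit for several subunit genes. In each class, 3 of 80 subunit genes differed between Batch 3 and Batch 2 by more than 2 on the log2 scale. Of all 14155 genes, 1.67% in leukocyte and 2.07% in epithelial columns did. Ndufa1 had 0 counts in all 14 leukocyte and all 17 epithelial rats of Batch 2, and in every rat of Batch 1, yet was counted in every rat of Batch 3. Atp5pb, the b subunit of the peripheral stalk, had 0 counts in 13 of 14 leukocyte and all 17 epithelial rats of Batch 2. The third gene was Ndufs6, a zinc-binding complex I subunit, in leukocyte columns (2.24, Batch 3 minus Batch 2), and Ndufa4l2 in epithelial columns (2.14). Ndufb4 (1.72 in leukocyte and 1.26 in epithelial columns) and Cox7a2 (1.39 and 1.03) also lay higher in Batch 3. Of all 17455 symbols, 55 in leukocyte and 56 in epithelial columns had 0 counts in every Batch 2 rat and at least 10 in every Batch 3 rat. All results on Ndufa1 above come from Batch 3 alone.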

How the data were processed

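The authors deposited raw counts per gene, 1 column per library, with a sample table that gives the batches; the columns hold whole numbers that sum to 2353564 to 29727437. Per the submitters' processing notes, STAR, FastQC and the rn6 build were used; which tool counted reads, and whether by strand, is not given in the sources used here. Per the labels' protocols, less than 10 ng of RNA per library went into the SMARTer v4 kit. Of 108 columns, 1 whose header names no rat was not used. Treatment came from the rat named in the header. Counts were summed per rat, class and batch, filtered with filterByExpr, scaled by TMM and tested with edgeR 4.0.16 (quasi-likelihood, robust; R 4.3.3), in 1 fit per class with 4 groups; p-values were Benjamini-Hochberg adjusted over all genes tested, at 0.05. Errors marked SE are the absolute log2 fold change divided by the root of F for edgeR, and the standard error that DESeq2 reports for DESeq2. CPM in the treatment comparisons used TMM within a class, and log2 CPM used a prior count of 2. Of the 82 genes, 78 passed the filter in leukocyte and 79 in epithelial columns; Cox6c-ps1, Cox8b and Cox8c passed in neither, and Ndufa4l2 not in leukocytes. Cox6c with Cox6c-ps1, and Ndufa10 with Ndufa10l1, share sequence and are uncertain. Genes were named by rule: those past the threshold, the extremes of each complex, and the isoform pairs. Those separating groups fully were added after their values were seen. Cox7c and some genes given for batch differences were named outside this rule, with values already seen. The genes and lists were chosen with earlier results of these data known. Alternatives were DESeq2 1.42.0, limma 3.58.1 (voom), other scaling, filters, classes, batches, a rat block, and leaving out each rat. The code was tested on simulated data. The rat block uses rats that gave both classes, so same-numbered samples come from the same animal.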

Additional observations from a re-analysis of the deposited data

Results flagged for a closer look

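With 4 leukocyte rats given anti-PD-L1, P29 stood apart from the other 3. Its mean over the subunit genes was 6.34 (log2 CPM), and its gap to the next rat was 0.850 of the group's whole range. For complex I alone the mean of P29 was 5.93, with a gap of 0.948 of the range. The B cell markers of its leukocyte columns summed to 1021 CPM, against 18.6 to 31.3 CPM in the other 3. Combination rat P36 had 572 CPM of them, with a mean over the subunit genes of 6.97. The part of these markers was not tested. Among the 5 epithelial rats given anti-PD-L1, P24 had the lowest mean of complex II, 6.996 (log2 CPM), with a gap of 0.744 of the range. These 3 came from 30 groups of values examined, which hold the mean over all subunit genes and those of the complexes in the same rats. Chance sets about 1 in 20 independent groups apart. These groups are not independent, so the 3 cannot be set against that rate.

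With anti-PD-L1, every epithelial rat had a mean over the subunit genes above the vehicle mean of its class, by 0.27 on average (log2 CPM), and every leukocyte rat one below it, by −0.28, over 9 values from 5 rats, since the 4 leukocyte rats were also among the epithelial ones. The difference between these means was not tested; the test of it gene by gene passed for 0 genes.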

How the results depend on the processing

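Of 228 alternative counts of subunit genes past the threshold, 1 moved: DESeq2 called 2 with the inhibitor in leukocytes, where edgeR called 0. Of 165 alternative medians, 10 moved by more than the spread between rats. In Batch 2 alone, a choice made after seeing the data, the leukocyte medians were −0.66 (inhibitor), −0.67 (anti-PD-L1) and −0.96 (combination), and the epithelial anti-PD-L1 median was 0.0076. With all batches, the leukocyte combination median was −0.42 with batch as a covariate and −0.40 without, and the epithelial inhibitor median turned to 0.0088 without a batch term. Without tumours that have an Ep label, also chosen later, 1 epithelial inhibitor rat remained, taken to vary like the other groups, and that median was −0.46. The cause of these shifts was not tested.

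Leaving out each rat gave leukocyte medians of −0.67 to −0.22 (inhibitor), −0.35 to −0.15 (anti-PD-L1) and −0.25 to −0.01 (combination), and epithelial medians of −0.40 to −0.065, 0.27 to 0.48 and 0.21 to 0.44; no subunit gene was called in any of these fits. With the rat as a replicate block, the difference between classes had 0 subunit genes called for each treatment, as without it. None of 85 alternative class differences moved beyond the spread, but that limit is wide enough to let a sign change pass. Complex II turned to 0.02 with all batches and 0.17 by column total within it. With 2 to 6 rats a group, small shifts were not detectable; isoforms under a few CPM rest on few counts.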
